A study of Rattus norvegicus with 8 samples.

Results

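The 44 genes described here are the rat genes named as proteasome components, taken as every row of the deposited gene table whose symbol begins with Psm, a letter a to g and a digit, with at least 1 CPM (reads of a gene scaled to the library total) in at least 4 of the 8 libraries. The name pattern matched 46 rows of the 30240 in the table, and 6849 genes in all met the same expression rule. Of the 46, the testis-specific alpha subunit Psma8 had 0 reads in the 8 libraries together and the pseudogene Psme1-ps1 had 1 read, so neither is a member. Psmb8, at 1 CPM or more in 4 libraries, and Psmg1, in 5, were the members nearest to the limit. By role, 14 members encode the constitutive 20S core, 17 the 19S cap, 2 the inducible catalytic subunits of the immunoproteasome, 4 other activators or inhibitors of the core and 5 factors that assist assembly. The last 2, Psmc3ip and Psme3ip1, match by name only: Psmc3ip encodes a protein of meiotic recombination and Psme3ip1 a protein that binds an activator of the core. Psmb10, Psmd9, Psmd10 and Psme3 were not analysed here.

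The 26S proteasome degrades proteins that carry ubiquitin chains. Its 20S core is a barrel of stacked rings, with outer rings of alpha subunits that gate the entry and inner rings of beta subunits, of which Psmb5, Psmb6 and Psmb7 encode the proteolytic ones. The 19S cap recognises ubiquitin chains, removes them and drives the unfolded substrate into the core with a ring of ATPases. In many cells interferon induces Psmb8, Psmb9 and Psmb10, which replace the constitutive catalytic subunits and shift the peptides made towards those presented by class I molecules. When proteasome activity falls short, the transcription factor NRF1, the product of Nfe2l1, is known from human and mouse cells to raise many subunit genes together.

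Messenger RNA was measured by 3′-end sequencing in SF2 cells, an epithelial line from the growing end of the rat lower incisor. The cells either overexpressed AmeloD, a tooth epithelial transcription factor that binds E-boxes, or served as Control. In each genotype the plasmid label was pCMV6.ODAM or pCMV6 and the second treatment label was TGF or N, neither of which the labels spell out. Each of the 8 combinations had 1 library: AmeloD with pCMV6.ODAM TGF, pCMV6 TGF, pCMV6.ODAM N and pCMV6 N, and Control with the same 4. Values per library are given in that order throughout. How the AmeloD cells were made, whether they are 1 clone, and whether libraries came from separate cultures is not stated by the labels. The p-values therefore measure a spread between these libraries that may be technical and is partly borrowed from other genes. No combination has a replicate, so that spread also holds any interaction of genotype, plasmid and TGF label.

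Library totals were 10568146 to 13668736 reads in AmeloD and 14766931 to 17775226 reads in Control. Every AmeloD library was thus shallower (fewer reads) than every Control library. Depth therefore cannot be told apart from genotype, and its part in the genotype differences was not tested. Of these reads, 1662973 to 2854134 per library lay in the gene table. The members together held 0.564% to 0.635% of the reads in the table. Odam had 3 and 1 reads in the AmeloD pCMV6.ODAM libraries with TGF and N, 17 and 10 in the matching Control libraries, and at most 1 in each pCMV6 library. Ascl5, the gene of AmeloD, had 0 reads in every library. A 3′-end count of the native gene need not see a construct, so it does not check the genotype label. Of the epithelial markers, 6 of 8 had a row, with a summed level of 786 to 948 CPM in AmeloD and 543 to 695 CPM in Control libraries. The 6 listed ameloblast markers, among them Amelx, Ambn and Enam, had 0 reads. The library that stood apart for the members was AmeloD pCMV6.ODAM TGF: 23 of the 44 (52.3%) had their highest CPM in it, against 22.3% of all tested genes, and 17 (38.6%) against 15.5% with TMM scaling, an alternative chosen after seeing the data.

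Between genotypes, a few single subunit and chaperone genes passed the test and most proteasome genes did not. Each of these calls was lost in some of the runs with 1 library left out. Of the 44 members, 6 (13.6%) passed the test of AmeloD against Control, beside 13.8% of all 6849 genes tested, so the share of members was close to that of genes in general. Higher in AmeloD were the chaperone genes Psmg4 and Psmg3, the 19S lid genes Psmd11 and Psmd3 and the catalytic core gene Psmb7, which is 5 of 44 against 9.07% of all genes. Lower was 1 member, the ATPase gene Psmc3, against 4.75% of all genes. The test is limma on log2(CPM + 1) with genotype, plasmid and TGF label as additive terms over the 8 libraries, with Benjamini-Hochberg adjustment over all 6849 genes at 0.05. Differences are log2 differences ± SE on that scale, which understates the change of low genes. At an unadjusted p under 0.05, 11 members (25%) and 27% of all genes passed. Of the 946 genes called among all, 65.6% were higher in AmeloD, and with TMM scaling 52.9%.

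The median difference of the 44 members was 0.10, beside 0.05 over all genes, and 31 of 44 (70.5%) lay above 0, beside 57% of all genes. With TMM scaling the medians were 0.05 and -0.00 and 28 of 44 members lay above 0, beside 49.6% of all genes. In 7 members every AmeloD library lay above every Control library, beside 9.49% of all genes, and these were Psmc6, Psmd11, Psmd3, Psma2, Psmb7, Psmg3 and Psmg4. In 1 member, Psmd1, every AmeloD library lay below every Control library, beside 5.53% of all genes. RNA was read from whole cultures, so a change in RNA per cell and a change in the share of a kind of cell cannot be told apart.

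**Figure D1:**
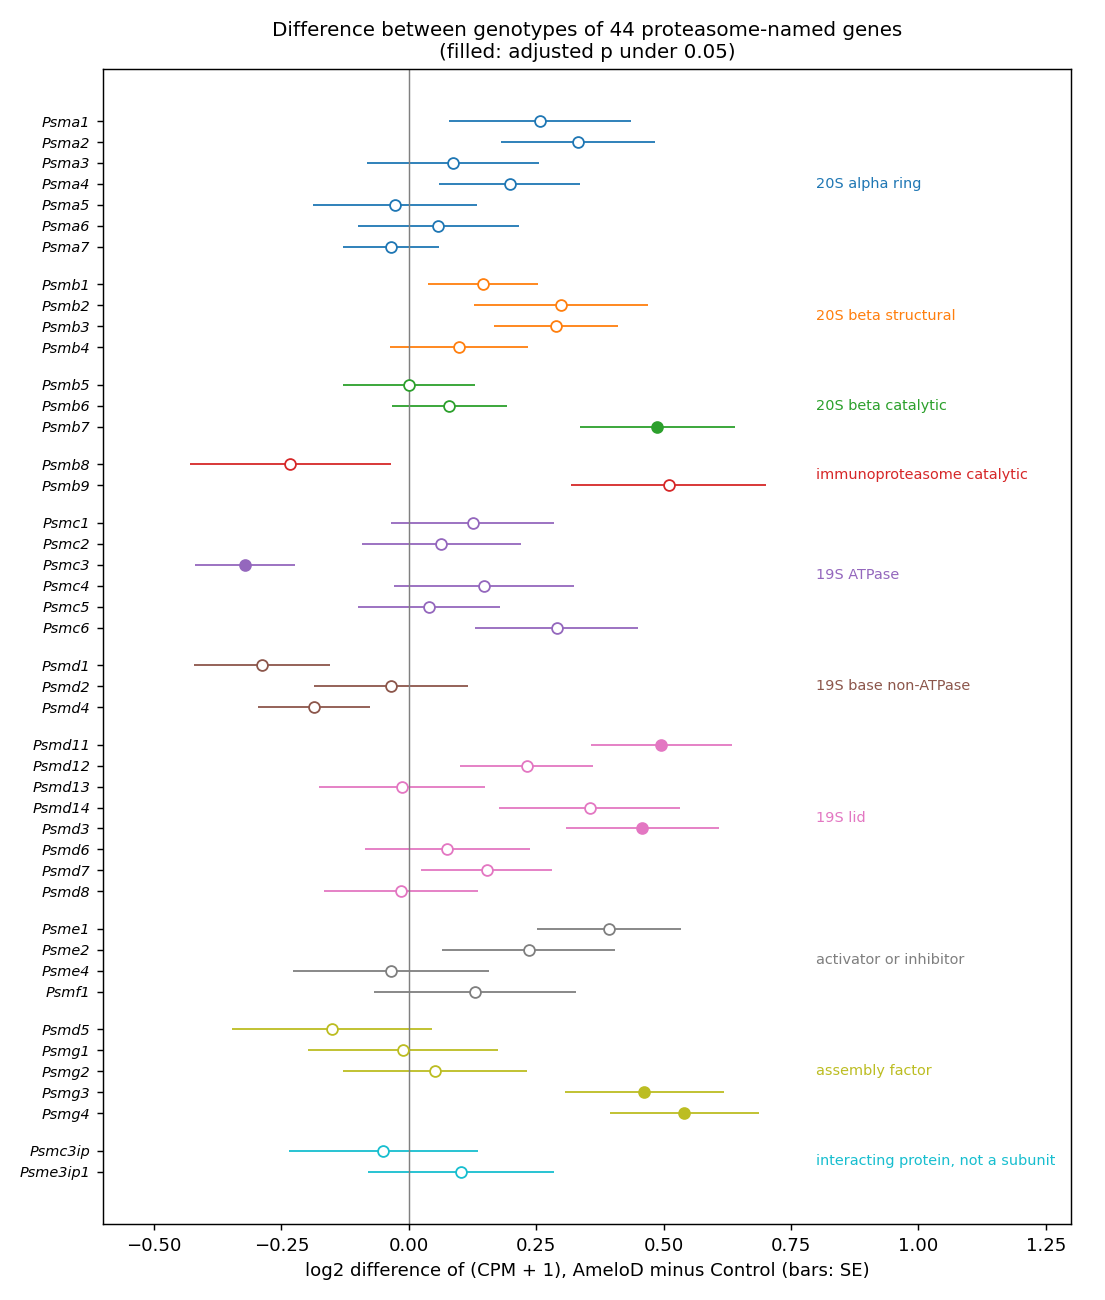
Difference between AmeloD and Control of each of the 44 members in log2(CPM + 1), grouped by role, with SE as bars; filled points passed the test of all 6849 genes. The filled points are Psmb7, Psmd11, Psmd3, Psmg3 and Psmg4 to the right of 0 and Psmc3 to the left, and every class but the 19S base non-ATPase genes has members to the right of 0.

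In the alpha ring of the 20S core, 0 of 7 genes passed the genotype test and 5 lay above 0. Psma2, which encodes alpha 2, had 7.83, 7.11, 6.16 and 6.15 CPM in AmeloD libraries, against 5.33, 5.68, 4.88 and 4.88 CPM in Control libraries. All 4 AmeloD libraries lay above all 4 Control libraries, and the difference of 0.33 ± 0.15 did not pass the test (limma, adjusted p = 0.155). At the other end of the ring was Psma7, which encodes the alpha 4 subunit, with 282, 325, 406 and 304 CPM in AmeloD libraries, against 336, 333, 325 and 344 CPM in Control libraries. Here the groups overlapped, with the highest and the lowest level both in AmeloD libraries (-0.03 ± 0.09, adjusted p = 0.867). Psma7 held 84.0% to 90.6% of the summed CPM of the ring in every library, so the sum of the ring follows this gene. The other members of the ring, Psma1, Psma3, Psma4, Psma5 and Psma6, had differences of -0.03 to 0.26, and the groups overlapped in each.

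Among the beta genes, the catalytic Psmb7 was higher in AmeloD and the structural ones did not pass. Psmb7 (ENSRNOG00000011732, chromosome 3, 22354698 to 22417937, minus strand, mRatBN7.2) encodes beta 2, the subunit that cuts after basic residues. It had 11.3, 9.89, 9.94 and 7.48 CPM in AmeloD libraries, against 6.04, 6.53, 6.43 and 7.13 CPM in Control libraries. The lowest AmeloD library lay just above the highest Control library, and the other 3 AmeloD libraries stood clearly above it. Psmb7 rose by 0.49 ± 0.15 (limma, adjusted p = 0.0329; 9.64 ± 1.58 CPM in AmeloD and 6.53 ± 0.452 CPM in Control, SD, n = 4 each) and was higher in 4 of 4 matched pairs, which are libraries with the same plasmid and TGF label. The call held narrowly with edgeR (adjusted p = 0.0487) and was lost with TMM scaling (adjusted p = 0.0541) and with DESeq2 (adjusted p = 0.101). It was also lost when any library other than the pCMV6 N library of either genotype was left out (highest adjusted p = 0.113).

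The other constitutive catalytic genes had small differences relative to the spread of the libraries. Psmb5, which encodes the chymotrypsin-like beta 5, had 21.1, 24.8, 19.9 and 20.5 CPM in AmeloD libraries, against 22.5, 18.1, 25.1 and 20.8 CPM in Control libraries. The ranges overlapped almost completely, and the difference was 0.00 ± 0.13 (limma, adjusted p = 0.999). Psmb6, which encodes the caspase-like beta 1, had a difference of 0.08 ± 0.11 (adjusted p = 0.714) and its highest level, 52.2 CPM, in AmeloD pCMV6.ODAM TGF.

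Of the 4 structural beta genes, all lay above 0 and 0 passed. Psmb2 had 7.10, 6.10, 5.04 and 5.11 CPM in AmeloD libraries, against 4.03, 3.83, 4.81 and 5.57 CPM in Control libraries. Both AmeloD TGF libraries were above every Control library and both AmeloD N libraries were within the Control range (0.30 ± 0.17, adjusted p = 0.273). Psmb4, which encodes the beta 7 subunit, had 18.9, 13.6, 17.6 and 14.1 CPM in AmeloD libraries, against 16.1, 12.2, 14.6 and 16.5 CPM in Control libraries. These groups overlapped, with a difference of 0.10 ± 0.14 (adjusted p = 0.707). Psmb3 differed by 0.29 ± 0.12 (adjusted p = 0.121) and Psmb1 by 0.15 ± 0.11 (adjusted p = 0.427), both higher in AmeloD in 4 of 4 pairs. Over the whole constitutive core, 1 of 14 genes was higher, 0 were lower and 12 lay above 0, with a median of 0.12.

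The immunoproteasome genes were read at a low level, and neither passed the genotype test. Psmb9, which encodes beta 1i and stands in for Psmb6, had 2.27, 1.94, 2.22 and 1.99 CPM in AmeloD libraries, against 1.23, 1.13, 2.03 and 0.563 CPM in Control libraries. The AmeloD libraries lay close together, and only the Control pCMV6.ODAM N library reached into their range. Before scaling, Psmb9 had 103 reads in AmeloD and 78 in the deeper Control libraries. Its difference was 0.51 ± 0.19 (limma, adjusted p = 0.0771), higher in 4 of 4 pairs. In 1 of 17 alternatives it passed, without the Control pCMV6.ODAM N library (adjusted p = 0.0431). With TMM scaling, edgeR and DESeq2 the adjusted p was 0.109, 0.157 and 0.287, and with another library left out it reached 0.316. Psmb8, which encodes beta 5i and stands in for Psmb5, had 0.805, 1.11, 0.593 and 0.568 CPM in AmeloD libraries, against 1.43, 0.450, 1.49 and 1.06 CPM in Control libraries. The groups overlapped, with 37 reads in AmeloD and 69 in the deeper Control libraries before scaling. The difference of Psmb8 was -0.23 ± 0.20 (limma, adjusted p = 0.494), higher in 1 of 4 pairs.

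Each inducible subunit was also read as a share of its pair with the constitutive subunit it replaces, with exact binomial 95% intervals that cover counting error only. Such a share sets reads of different genes side by side and does not measure the fraction of proteasomes that hold the inducible subunit. How evenly 3′-end reads capture the genes of a pair was not tested. Psmb9 made up 4.66% (3.82% to 5.63%) of the Psmb9 and Psmb6 reads summed over the AmeloD libraries, against 2.94% (2.33% to 3.66%) over the Control libraries. Single libraries gave 4.17% to 5.10% in AmeloD and 1.40% to 4.78% in Control, so the groups overlapped. Psmb8 made up 3.43% (2.43% to 4.70%) of the Psmb8 and Psmb5 reads in AmeloD, against 4.79% (3.75% to 6.03%) in Control. Its single libraries ranged over 2.69% to 4.29% in AmeloD and 2.42% to 5.98% in Control. The 2 shares thus lay on opposite sides of Control, and neither was tested. Psmb9 overlaps Tap1 on the opposite strand by 1710 bases, and Tap1 itself had 45 reads in the 8 libraries. The sources used here do not state whether the counting used strand, so reads of this pair cannot be told apart where they overlap.

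**Figure D2:**
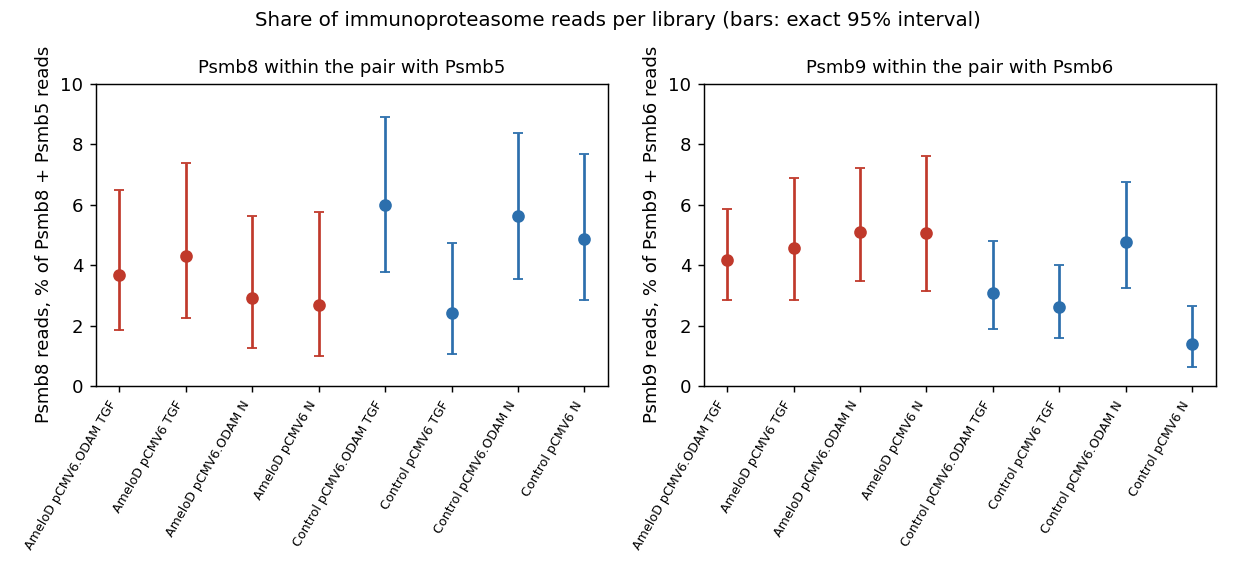
Share of Psmb8 reads in the Psmb8 and Psmb5 pair (left) and of Psmb9 reads in the Psmb9 and Psmb6 pair (right) in percent for each library, AmeloD in red and Control in blue, with exact 95% intervals for counting error. The Psmb9 shares of AmeloD lie between 4.17% and 5.10%, and those of Control spread over 1.40% to 4.78%.

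In the ATPase ring of the 19S cap the members went different ways. Psmc3 (ENSRNOG00000011414, chromosome 3, 77031825 to 77043358, plus strand, mRatBN7.2), which encodes the ATPase Rpt5, was the only member to pass as lower in AmeloD. It had 166, 121, 152 and 116 CPM in AmeloD libraries, against 172, 162, 171 and 181 CPM in Control libraries. Both AmeloD pCMV6 libraries were well below every Control library, while AmeloD pCMV6.ODAM TGF lay within the Control range, so the groups overlapped. Psmc3 fell by 0.32 ± 0.10 on the log2 scale (limma, adjusted p = 0.0291; 138 ± 24.2 CPM in AmeloD and 172 ± 7.48 CPM in Control, SD, n = 4 each), and it was lower in 4 of 4 pairs. The call held with TMM scaling, edgeR and DESeq2 (adjusted p = 0.0125, 0.0160 and 0.00698) and was lost without any one of the 4 pCMV6 libraries (highest adjusted p = 0.185). Psmc3 overlaps Slc39a13 on the opposite strand by 276 bases, and Slc39a13 had 218 reads in all, against 17786 for Psmc3.

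Psmc6, which encodes Rpt4, lay at the other end of the ring with 5.27, 4.80, 4.82 and 5.11 CPM in AmeloD libraries, against 4.03, 4.11, 3.93 and 3.57 CPM in Control libraries. Every AmeloD library was above every Control library, yet the difference of 0.29 ± 0.16 did not pass (limma, adjusted p = 0.253). Psmc4, which encodes Rpt3 and was picked out after its values were seen, had 50.2, 19.7, 33.7 and 14.9 CPM in AmeloD libraries, against 22.3, 21.9, 27.8 and 24.3 CPM in Control libraries. Its AmeloD libraries span both the highest and the lowest level, 3.38-fold apart, while the Control libraries lie within 21.9 to 27.8 CPM. Relative to counting error, Psmc4 had the widest spread of all members, with a variance index over the 8 libraries of 58.3 where counting error alone gives about 1. The median of the members was 3.98, and for members of 3 to 60 CPM it was 4.63, beside 4.46 for all genes of that range.

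Psmc2 (Rpt1), Psmc3, Psmc4 and Psmc5 (Rpt6) were each higher in both AmeloD pCMV6.ODAM libraries than in both AmeloD pCMV6 libraries. Psmc1 (Rpt2) and Psmc6 were not. Over all members 12 of 44 (27.3%) had this order, beside 17.6% of all genes tested. The AmeloD pCMV6.ODAM libraries, with 13668736 and 13484330 reads, were also deeper than the AmeloD pCMV6 libraries, with 10823522 and 10568146 reads. In Control both pCMV6 libraries were the deeper ones. The part of depth in this order was not tested. Psmc2 had 11.7, 7.39, 8.45 and 6.25 CPM in AmeloD and Psmc5 had 20.8, 14.0, 15.3 and 12.3 CPM, each in the order given above. In Control the levels of Psmc2 were 7.80, 9.28, 7.38 and 7.07 CPM and those of Psmc5 were 14.4, 15.2, 14.6 and 15.3 CPM, with no such order. The genotype by plasmid term, which is the AmeloD minus Control difference with pCMV6.ODAM less that with pCMV6, was 1.11 ± 0.28 for Psmc4 (limma, adjusted p = 0.945) and 0.42 ± 0.18 for Psmc3 (adjusted p = 0.999). No ATPase gene passed that test after adjustment over all genes, and the order was noticed in these data. Psmc1 overlaps Nrde2 and Psmc5 overlaps Smarcd2 on the opposite strand.

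**Figure D3:**
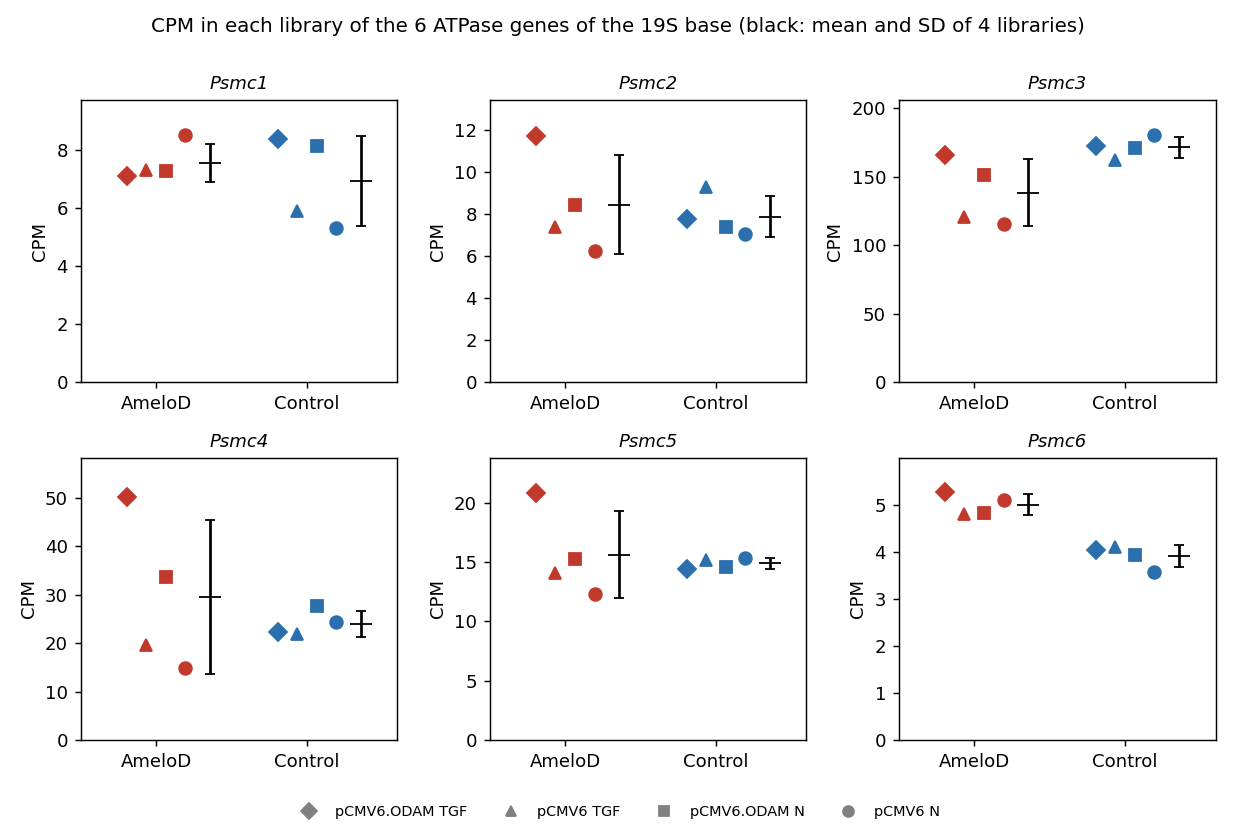
CPM of the 6 ATPase genes in each library, AmeloD in red left of Control in blue, symbols by plasmid and TGF label, with the mean and SD of 4 libraries in black. Psmc4 spreads over 14.9 to 50.2 CPM in AmeloD and 21.9 to 27.8 CPM in Control, whereas the groups do not overlap for Psmc6.

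The 3 other genes of the 19S base lay below 0, and 0 of 3 passed. Psmd1, which encodes the scaffold Rpn2, had 11.8, 14.0, 13.3 and 13.8 CPM in AmeloD libraries, against 18.4, 14.9, 14.8 and 17.5 CPM in Control libraries. Every AmeloD library was below every Control library, by -0.29 ± 0.13 (limma, adjusted p = 0.163), and with TMM scaling the adjusted p was 0.0541. Psmd2, which encodes the scaffold and shuttle receptor Rpn1, had 13.4, 11.4, 8.90 and 10.03 CPM in AmeloD libraries, against 12.1, 9.11, 10.8 and 12.8 CPM in Control libraries. These overlapped (-0.04 ± 0.15, adjusted p = 0.918). The ubiquitin receptor gene Psmd4 (Rpn10) differed by -0.19 ± 0.11 (adjusted p = 0.291), with 60.9 to 83.0 CPM in AmeloD and 71.9 to 93.6 CPM in Control.

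In the 19S lid, 2 of 8 genes were higher in AmeloD, 0 were lower and 6 lay above 0. Psmd11 (ENSRNOG00000005538, chromosome 10, 65433853 to 65479766, plus strand, mRatBN7.2) encodes Rpn6, which clamps the lid to the core. It had 14.3, 14.0, 12.9 and 16.5 CPM in AmeloD libraries, against 10.8, 8.95, 10.4 and 9.58 CPM in Control libraries. The groups are separate, with the lowest AmeloD library above the highest Control library. Psmd11 rose by 0.50 ± 0.14 (limma, adjusted p = 0.0161; 14.4 ± 1.495 CPM in AmeloD and 9.92 ± 0.820 CPM in Control, SD, n = 4 each), in 4 of 4 pairs. The call held with TMM scaling, edgeR and DESeq2 (adjusted p = 0.0233, 0.0246 and 0.0398), and was lost without AmeloD pCMV6 N, Control pCMV6 N or Control pCMV6 TGF (highest adjusted p = 0.104).

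Psmd3 (ENSRNOG00000028103, chromosome 10, 83643647 to 83655618, plus strand, mRatBN7.2), which encodes Rpn3, had 10.02, 7.85, 8.90 and 8.99 CPM in AmeloD libraries, against 7.02, 5.06, 6.30 and 6.63 CPM in Control libraries. Again no library of one genotype reached into the range of the other. Psmd3 rose by 0.46 ± 0.15 (limma, adjusted p = 0.0416; 8.94 ± 0.887 CPM in AmeloD and 6.25 ± 0.846 CPM in Control, SD, n = 4 each), in 4 of 4 pairs. With TMM scaling its adjusted p was 0.0522, with edgeR 0.0503 and with DESeq2 0.116, and leaving out any library other than Control pCMV6 N or Control pCMV6.ODAM TGF ended the call (highest adjusted p = 0.169). The lid gene with the lowest difference was Psmd8 (Rpn12), with 17.7, 12.9, 8.38 and 9.94 CPM in AmeloD libraries, against 14.7, 11.2, 10.6 and 11.5 CPM in Control libraries (-0.01 ± 0.15, adjusted p = 0.967). It overlapped fully between genotypes and is taken up under TGF. Psmd14, which encodes the deubiquitinase Rpn11, differed by 0.36 ± 0.18 (adjusted p = 0.203), and Psmd6, Psmd7, Psmd12 and Psmd13 by -0.01 to 0.23. Over the 19S cap, 2 of 17 genes were higher, 1 was lower and 11 lay above 0, with a median of 0.08.

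None of the 4 activator and inhibitor genes passed the genotype test. Psme1, which encodes PA28 alpha, an activator induced by interferon, had 16.9, 9.61, 14.3 and 10.2 CPM in AmeloD libraries, against 11.2, 8.10, 9.48 and 8.45 CPM in Control libraries. The groups overlapped through the Control pCMV6.ODAM TGF library, and the difference was 0.39 ± 0.14 (limma, adjusted p = 0.0638), higher in 4 of 4 pairs. Of 18 alternatives it passed, with an adjusted p of 0.0485, in 1, the model with a plasmid by TGF term, which gives each matched pair its own level. Psme2, its partner PA28 beta, differed by 0.24 ± 0.17 (adjusted p = 0.410). The activator gene Psme4 (PA200) had the lowest difference, with 2.34, 4.99, 3.71 and 4.83 CPM in AmeloD libraries, against 5.004, 3.09, 3.52 and 4.44 CPM in Control libraries (-0.04 ± 0.19, adjusted p = 0.938). Its genotypes overlapped. Psmf1, which encodes the inhibitor PI31, differed by 0.13 ± 0.20 (limma, adjusted p = 0.736). Before scaling to library totals, it had 104 reads in AmeloD and 111 in the deeper Control libraries.

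Of the 5 assembly factor genes, 2 were higher in AmeloD and 0 lower. Psmg4 (ENSRNOG00000039265, chromosome 17, 30710682 to 30718082, minus strand, mRatBN7.2) encodes PAC4, a chaperone of alpha ring assembly. It had 17.8, 18.7, 19.7 and 15.1 CPM in AmeloD libraries, against 13.8, 14.96, 8.26 and 11.6 CPM in Control libraries. The lowest AmeloD library, lay next to the highest Control library. Psmg4 had the largest difference of all members, 0.54 ± 0.15 (limma, adjusted p = 0.0128; 17.8 ± 1.94 CPM in AmeloD and 12.1 ± 2.94 CPM in Control, SD, n = 4 each), and was higher in 4 of 4 pairs. It held with TMM scaling, edgeR and DESeq2 (adjusted p = 0.0246, 0.0294 and 0.0386) and was lost without AmeloD pCMV6.ODAM N or Control pCMV6.ODAM N (highest adjusted p = 0.119).

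Psmg3 (ENSRNOG00000001273, chromosome 12, 14809450 to 14812342, plus strand, mRatBN7.2) encodes PAC3, the partner of PAC4. It had 8.41, 6.28, 5.93 and 6.06 CPM in AmeloD libraries, against 5.26, 4.50, 4.60 and 3.82 CPM in Control libraries. The genotypes did not overlap. Psmg3 rose by 0.46 ± 0.16 (limma, adjusted p = 0.0480; 6.67 ± 1.17 CPM in AmeloD and 4.55 ± 0.592 CPM in Control, SD, n = 4 each), in 4 of 4 pairs. This was the least stable call: it was lost when any 1 of the 8 libraries was left out (highest adjusted p = 0.153), and with TMM scaling (0.0667), edgeR (0.0665) and DESeq2 (0.152). PAC3 and PAC4 form a dimer in human cells, as do PAC1 and PAC2. Psmg1 and Psmg2, the genes of PAC1 and PAC2, had differences of -0.01 ± 0.19 (adjusted p = 0.980) and 0.05 ± 0.18 (adjusted p = 0.903). Psmd5, a chaperone of the base ATPases, had 1.02, 1.11, 1.19 and 1.42 CPM in AmeloD libraries, against 1.10, 1.74, 2.17 and 0.876 CPM in Control libraries (-0.15 ± 0.20, adjusted p = 0.687). The genotypes overlapped, and before scaling AmeloD had 57 reads and the deeper Control libraries 94.

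The 2 members that only share the name did not pass. Psme3ip1 had 1.24, 1.11, 1.33 and 1.23 CPM in AmeloD libraries, against 1.23, 1.52, 0.880 and 0.751 CPM in Control libraries (0.10 ± 0.18, adjusted p = 0.779). Psmc3ip had 2.19, 1.66, 1.19 and 1.04 CPM in AmeloD libraries, against 1.62, 1.35, 1.69 and 1.63 CPM in Control libraries (-0.05 ± 0.19, adjusted p = 0.904). The genotypes overlapped in both, and Psmc3ip overlaps Mlx on the opposite strand by 3082 bases.

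**Figure D4:**
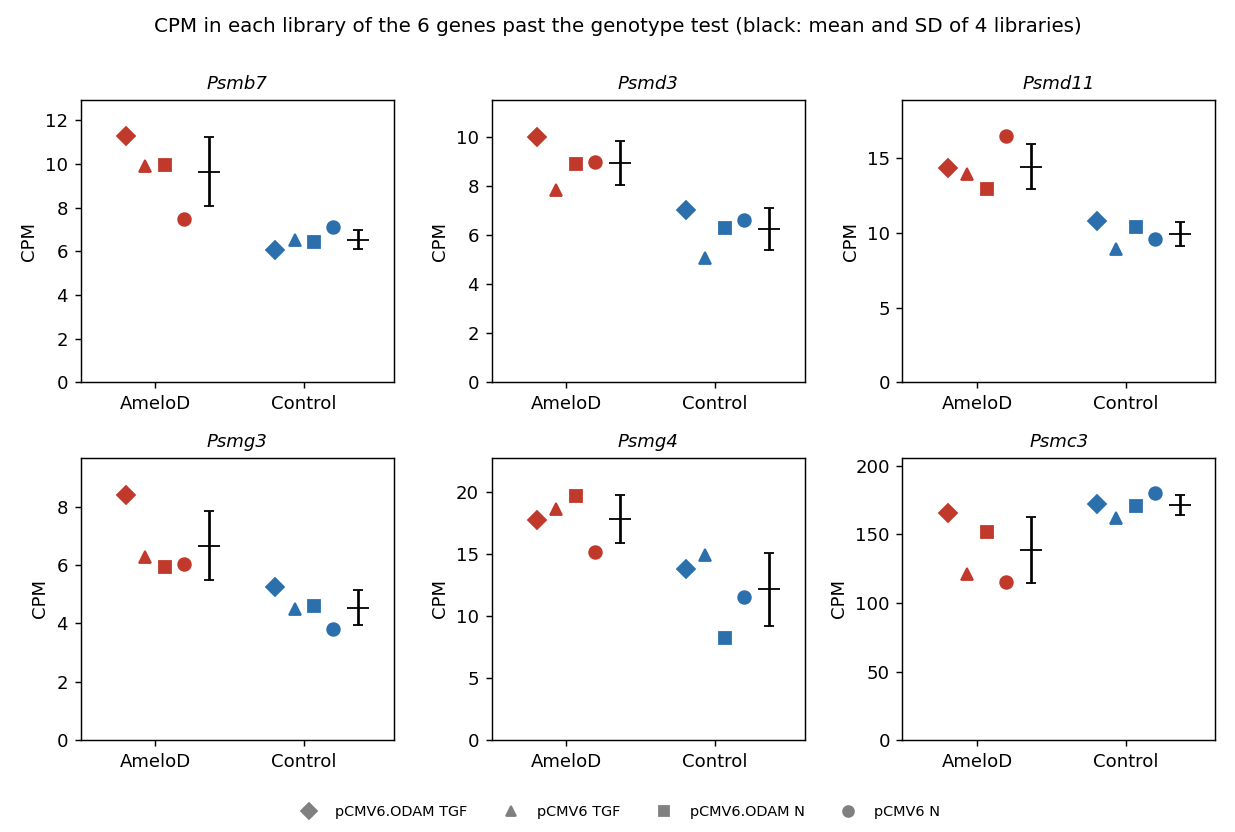
CPM in each library of the 6 members past the genotype test, AmeloD in red left of Control in blue, with the mean and SD of 4 libraries in black. For Psmb7, Psmd3, Psmd11, Psmg3 and Psmg4 every AmeloD library is above every Control library, whereas AmeloD pCMV6.ODAM TGF at 166 CPM keeps the Psmc3 groups overlapping.

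Promoter sequences of 40 of the 44 members were matched by symbol in RefSeq's table for the assembly GRCr8, 250 bases before to 50 bases after the gene start, 5′ to 3′ on the gene's strand. They are shown for the 6 members past the genotype test and for the exchange pair Psmb5 and Psmb8, to set beside the values above. Capitals mark matches, on either strand, to the antioxidant response element core bound by NRF1 and NRF2 (TGACNNNGC), the interferon-stimulated response element core and the CCAAT box (CCAAT). The coordinates are, for Psmd11, chr10:65932093-65932392, plus strand; for Psmd3, chr10:84139688-84139987, plus strand. Psmb7 is at chr3:42827421-42827720, minus strand, Psmg3 at chr12:19923038-19923337, plus strand, Psmg4 at chr17:30923324-30923623, minus strand and Psmc3 at chr3:97487393-97487692, plus strand. Psmb5 is at chr15:32047330-32047629, minus strand, and Psmb8 at chr20:4656982-4657281, minus strand.
Psmd11: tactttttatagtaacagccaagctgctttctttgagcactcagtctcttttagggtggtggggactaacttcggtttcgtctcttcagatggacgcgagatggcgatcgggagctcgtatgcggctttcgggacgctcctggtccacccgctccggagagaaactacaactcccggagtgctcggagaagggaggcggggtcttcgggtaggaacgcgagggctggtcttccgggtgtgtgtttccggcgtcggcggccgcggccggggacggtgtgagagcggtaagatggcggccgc
Psmd3: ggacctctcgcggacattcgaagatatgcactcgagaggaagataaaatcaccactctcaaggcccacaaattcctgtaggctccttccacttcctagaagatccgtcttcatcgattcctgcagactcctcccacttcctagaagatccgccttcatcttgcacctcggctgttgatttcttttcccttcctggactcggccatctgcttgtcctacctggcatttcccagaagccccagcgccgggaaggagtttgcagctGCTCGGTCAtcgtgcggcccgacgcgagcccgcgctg
Psmb7: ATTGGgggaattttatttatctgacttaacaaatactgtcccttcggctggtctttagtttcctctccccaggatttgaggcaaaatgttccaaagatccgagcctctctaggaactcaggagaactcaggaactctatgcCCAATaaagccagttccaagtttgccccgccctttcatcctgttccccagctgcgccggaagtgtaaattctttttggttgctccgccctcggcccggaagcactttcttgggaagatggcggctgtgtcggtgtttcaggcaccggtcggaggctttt
Psmg3: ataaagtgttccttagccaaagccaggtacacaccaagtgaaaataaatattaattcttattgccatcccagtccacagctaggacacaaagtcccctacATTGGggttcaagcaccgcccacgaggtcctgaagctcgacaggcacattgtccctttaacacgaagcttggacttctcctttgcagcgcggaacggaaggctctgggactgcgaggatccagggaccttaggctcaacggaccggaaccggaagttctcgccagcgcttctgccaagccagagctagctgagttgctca
Psmg4: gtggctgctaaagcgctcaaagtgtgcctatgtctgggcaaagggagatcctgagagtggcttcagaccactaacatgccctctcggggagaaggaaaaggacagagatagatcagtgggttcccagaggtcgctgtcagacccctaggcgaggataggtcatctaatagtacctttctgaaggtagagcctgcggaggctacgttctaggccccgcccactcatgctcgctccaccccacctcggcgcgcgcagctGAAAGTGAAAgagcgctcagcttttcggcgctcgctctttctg
Psmc3: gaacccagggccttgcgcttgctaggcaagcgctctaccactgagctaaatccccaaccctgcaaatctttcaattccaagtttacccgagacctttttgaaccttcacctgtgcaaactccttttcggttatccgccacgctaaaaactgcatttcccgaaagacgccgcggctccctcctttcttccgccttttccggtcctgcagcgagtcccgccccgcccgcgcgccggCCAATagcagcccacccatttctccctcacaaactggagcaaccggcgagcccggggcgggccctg
Psmb5: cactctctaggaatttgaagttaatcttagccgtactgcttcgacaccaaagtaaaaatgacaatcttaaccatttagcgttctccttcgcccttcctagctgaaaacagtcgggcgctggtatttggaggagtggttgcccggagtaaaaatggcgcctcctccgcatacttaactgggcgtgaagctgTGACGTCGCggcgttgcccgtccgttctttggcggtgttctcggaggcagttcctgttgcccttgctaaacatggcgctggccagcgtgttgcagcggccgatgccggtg
Psmb8: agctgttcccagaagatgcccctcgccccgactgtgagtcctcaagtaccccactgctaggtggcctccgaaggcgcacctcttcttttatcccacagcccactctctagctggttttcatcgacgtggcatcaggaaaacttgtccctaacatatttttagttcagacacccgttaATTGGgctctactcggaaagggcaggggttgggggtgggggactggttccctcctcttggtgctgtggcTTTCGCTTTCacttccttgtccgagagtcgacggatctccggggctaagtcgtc

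Among the 6 promoters of called members, the antioxidant response core was found in Psmd3 alone, 13 bases past the start, and the interferon response core in Psmg4 alone, 7 bases past the start. CCAAT boxes were found in Psmb7, Psmg3 and Psmc3, and none of the 3 motifs in Psmd11. In the exchange pair, Psmb5 held an antioxidant response core 60 bases before the start, and Psmb8 an interferon response core 4 bases and a CCAAT box 73 bases before it. Over all 40 promoters the antioxidant response core was in 7 (17.5%), beside 12.2% of the 27457 promoters in the table and 15.5% of the 5154 promoters of tested genes. These were Psma3, Psmb2, Psmb5, Psmb6, Psmd1, Psmd3 and Psme4. The interferon response core was in 6 (15%), beside 3.77% and 3.01%, namely Psma4, Psmb3, Psmb8, Psmd7, Psme2 and Psmg4. CCAAT was in 20 (50%), beside 37.7% and 38.3%. The E-box CANNTG, the letters that basic helix-loop-helix factors bind, was in 29 (72.5%), beside 71.6% and 60.1%. A match is a match of letters in this window and no more.

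Summed per class, which gives most weight to the most read genes, the assembly factors and the structural beta genes did not overlap between genotypes. Of single genes tested, 9.49% were separate in the same direction, and no such share was computed for sums. The 5 assembly genes summed to 28.5 ± 2.31 CPM in AmeloD and 20.9 ± 3.12 CPM in Control (SD, n = 4 each), with ranges of 25.2 to 30.5 and 18.0 to 23.8 CPM that did not overlap. Psmg4 held 45.9% to 66.9% of this sum, and without it the ranges were 9.71 to 12.7 CPM in AmeloD and 6.88 to 9.75 CPM in Control and overlapped. The 4 structural beta genes summed to 87.5 ± 8.02 CPM in AmeloD and 76.0 ± 2.87 CPM in Control, with ranges of 80.8 to 97.8 and 72.5 to 79.2 CPM. Psmb1 held 42.7% to 50.7% of it, and without it the ranges, 43.2 to 51.6 CPM in AmeloD and 37.1 to 44.2 CPM in Control, overlapped too. Both sums without a gene were added after seeing the data. The other 7 classes drawn, and the pair that only shares the name, overlapped. The ATPases ranged over 163 to 261 CPM in AmeloD and 219 to 236 CPM in Control, Psmc3 holding 63.6% to 76.5% of their sum. The 19S lid came to 92.8 ± 8.48 CPM in AmeloD and 79.4 ± 6.31 CPM in Control, 1.17 times as much, and 1.11 times with TMM scaling. All 44 members together came to 989.9 ± 70.0 CPM in AmeloD and 983 ± 35.1 CPM in Control. No test was made of these sums.

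**Figure D5:**
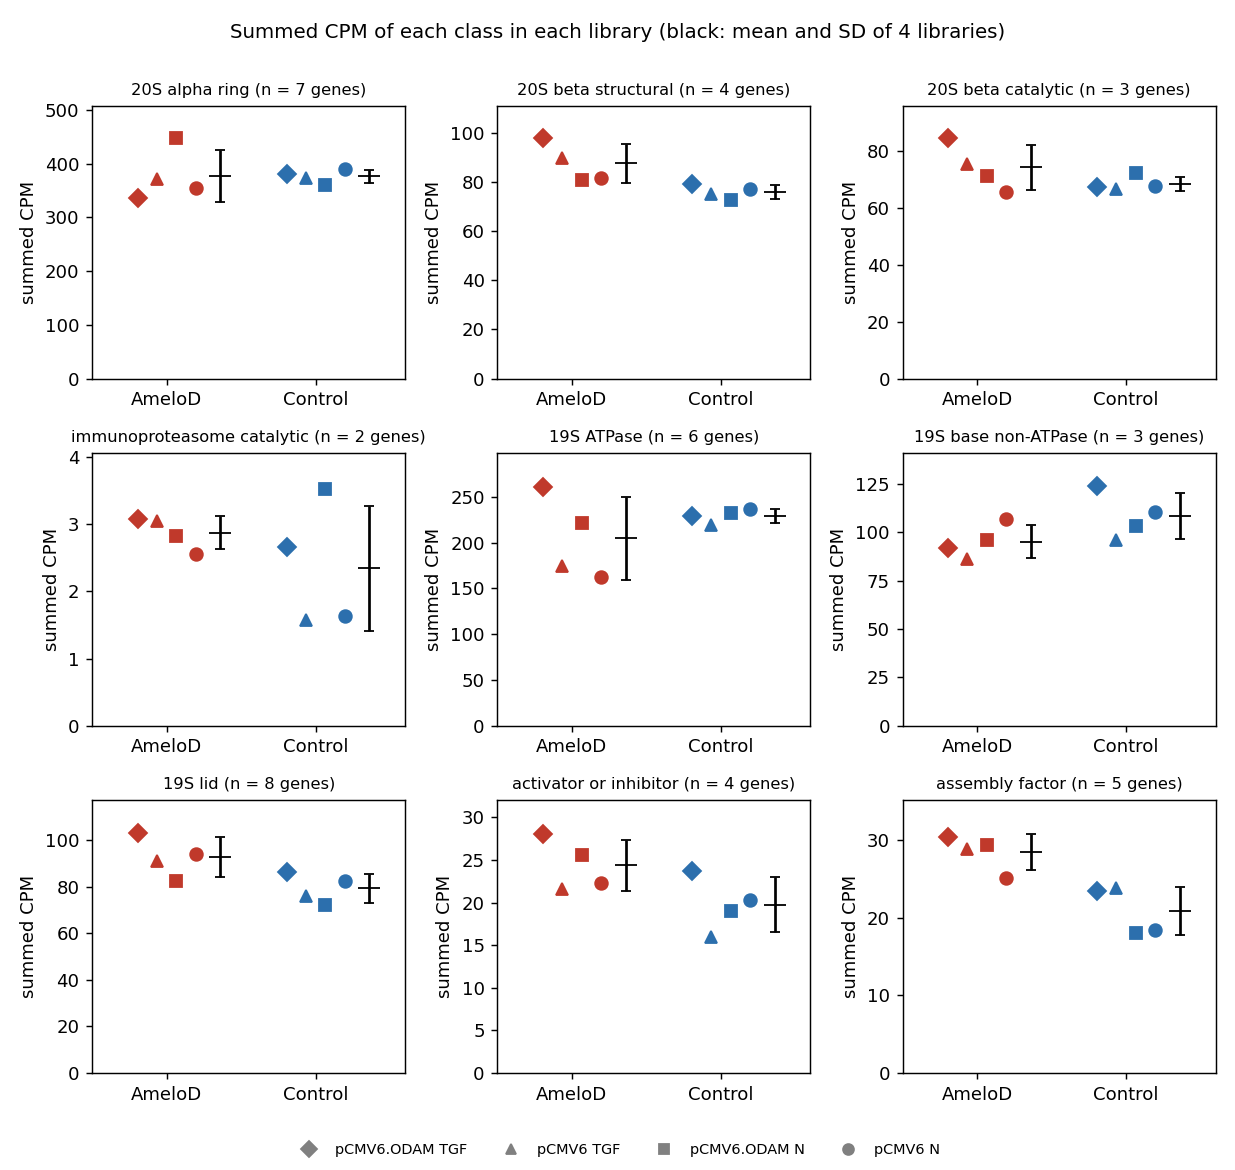
Summed CPM of each class of members in each library, AmeloD in red left of Control in blue, with the mean and SD of 4 libraries in black. The groups are separate for the assembly factors (25.2 to 30.5 against 18.0 to 23.8 CPM) and for the structural beta genes (80.8 to 97.8 against 72.5 to 79.2 CPM), and overlap in the other 7 panels.

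The comparison of TGF with N libraries asks what the condition labelled TGF does. No proteasome gene passed it: 0 of 44 by limma, beside 1.81% of all genes (1.53% higher and 0.277% lower), with 0 also by edgeR and DESeq2, and 1 of 44 at an unadjusted p under 0.05, beside 11.9% of all genes. That 1 was Psmd8, the lid gene for Rpn12, with 17.7, 12.9, 14.7 and 11.2 CPM in TGF libraries, against 8.38, 9.94, 10.6 and 11.5 CPM in N libraries, the first 2 of each set being AmeloD. The Control pCMV6 TGF library lay below the Control pCMV6 N library, so the groups overlapped; the difference was 0.43 ± 0.15 (adjusted p = 0.185). Psmb1, a structural core gene, was the only member whose TGF libraries all lay above the N libraries, beside 3.11% of all genes, and in 0 members did they all lie below, beside 1.15%. It had 46.7, 38.3, 38.4 and 38.1 CPM in TGF libraries, against 37.6, 37.1, 34.2 and 32.9 CPM in N libraries. Its difference was 0.18 ± 0.11 (adjusted p = 0.569). The median of the members was 0.07, beside 0.04 over all genes, and 29 of 44 lay above 0, beside 58.2%. With TMM scaling 24 of 44 lay above 0, beside 48.5%.

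The plasmid comparison, pCMV6.ODAM against pCMV6, gave no call either. Of the members 0 of 44 passed by limma, edgeR or DESeq2, and of all genes 0% by limma, 0 by edgeR and 1 by DESeq2. In 0 members were the groups separate, higher or lower, beside 1.43% and 0.628% of all genes. At an unadjusted p under 0.05 there were 4 members (9.09%), beside 6.63% of all genes. These were Psmc4, Psme1, Psmf1 and Psmc3, with differences of 0.66 ± 0.18, 0.44 ± 0.14, 0.41 ± 0.20 and 0.21 ± 0.10 (limma, lowest adjusted p = 0.605). Psme1 had 16.9, 14.3, 11.2 and 9.48 CPM in pCMV6.ODAM libraries, against 9.61, 10.2, 8.10 and 8.45 CPM in pCMV6 libraries, the first 2 of each set being AmeloD. It was higher with pCMV6.ODAM in each genotype, and the Control pCMV6.ODAM N library fell just below both AmeloD pCMV6 libraries. The median of the members was 0.07, beside 0.03 over all genes, and 33 of 44 (75%) lay above 0, beside 56.9%. With TMM scaling the median of the members was 0.03, and 26 of 44 (59.1%) lay above 0, beside 49.6%.

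Whether the genotype difference itself depends on TGF or plasmid was tested with interaction terms. No member passed the genotype by TGF, genotype by plasmid or plasmid by TGF test by limma (lowest adjusted p = 0.999, 0.945 and 0.660), nor the genotype by TGF test by edgeR. Among all genes 0.0146% passed the genotype by TGF test and 0% each of the others. At an unadjusted p under 0.05 there were 1, 2 and 3 members, beside 4.12%, 4.50% and 7.36% of all genes. The first was Psmc4, the next 2 Psmc4 and Psmc3, and the last 3 Psma1, Psma4 and Psmd13. Over all genes the plasmid by TGF term had a median of 0.158 on the deposited CPM, against 0.001 with edgeR. Its unadjusted counts therefore include a shift common to genes in general, and the part of library scaling in it was not tested.

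The genes around the proteasome were read from a list of 38, of which 27 were tested. In the genotype comparison 2 were higher, 1 was lower and 24 did not pass, beside 9.07% higher and 4.75% lower among all genes. The 2 higher genes, Ddi2 and Nfe2l1, are listed with 2 others under transcriptional control of subunit genes. Ddi2, a protease known in human cells to cut NRF1 into its active form, had 2.41, 3.14, 4.82 and 2.46 CPM in AmeloD libraries, against 2.01, 1.13, 1.42 and 0.814 CPM in Control libraries. The groups did not overlap, and Ddi2 rose by 0.83 ± 0.20 (limma, adjusted p = 0.00500). Its call held with TMM scaling, edgeR and DESeq2 (adjusted p = 0.00784, 0.00802 and 0.0110). It also held with any 1 library left out (highest adjusted p = 0.0462) and was lost in TGF libraries alone. Nfe2l1, the gene of NRF1, had 128, 91.3, 103 and 91.0 CPM in AmeloD libraries, against 100.1, 77.7, 81.2 and 74.5 CPM in Control libraries. Its groups overlapped, with a rise of 0.30 ± 0.10 (adjusted p = 0.0396) that was lost with TMM scaling (adjusted p = 0.108), edgeR (0.119) and DESeq2 (0.108), and without any library other than AmeloD pCMV6 TGF or Control pCMV6.ODAM TGF (highest adjusted p = 0.171). The other 2 of that group, Nfe2l2 and Ngly1, had differences of -0.27 ± 0.15 (adjusted p = 0.277) and 0.05 ± 0.19 (adjusted p = 0.901).

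Vcp, the segregase that pulls ubiquitinated proteins out of complexes and hands them to the proteasome, had 32.6, 45.0, 30.0 and 40.4 CPM in AmeloD libraries, against 43.7, 48.7, 46.9 and 47.6 CPM in Control libraries. The AmeloD pCMV6 TGF library lay within the Control range and the other 3 AmeloD libraries below it. Vcp fell by 0.35 ± 0.11 (limma, adjusted p = 0.0405), the only 1 of 6 tested substrate delivery genes to pass. Its call held with TMM scaling, edgeR and DESeq2 (adjusted p = 0.0137, 0.0171 and 0.00977). It was lost in TGF libraries alone and with any gene of at least 1 read tested. Leaving out any library other than AmeloD pCMV6 TGF also ended the call (highest adjusted p = 0.218). Pomp, the maturation factor of the core whose symbol is outside the name pattern, differed by 0.07 ± 0.08 (adjusted p = 0.635). The small cap subunit gene Sem1 differed by -0.02 ± 0.10 (adjusted p = 0.944). In the other roles 0 of 5 tested subunit or assembly genes outside the name pattern, 0 of 6 proteasome-bound enzymes or stress factors and 0 of 5 ubiquitin genes passed. For TGF and for plasmid 0 of the 27 passed.

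Antigen processing genes, which interferon raises together with Psmb8 and Psmb9, were mostly too low to test. B2m, the light chain of class I molecules, was the only 1 of 8 tested and differed by 0.24 ± 0.15 (limma, adjusted p = 0.344). In the 8 libraries together Tap1 had 45 reads, Tap2 6, Tapbp 0, Erap1 67, Nlrc5 29 and Irf1 50. Irf1, an interferon-induced transcription factor, had 0.585, 0.739, 0.816 and 0.473 CPM in AmeloD libraries, against 0.195, 0.338, 0.271 and 0.313 CPM in Control libraries. These groups did not overlap, on few reads per library and below the level tested. Among tested genes 9.49% were separate in the same direction. The groups of Tap1, Tap2, Erap1 and Nlrc5 overlapped between genotypes. Paaf1 was not analysed here. Among markers of leukocytes, which carry immunoproteasomes, 4 of 7 had reads and their sum was 2.77 to 3.73 CPM in AmeloD and 0.876 to 1.63 CPM in Control, almost all of it Cd68, with 233 reads. Ptprc had 1 read and Tyrobp and Lyz2 had 0. The mesenchymal markers summed to 17.9 to 27.9 CPM in AmeloD and 34.9 to 66.1 CPM in Control, mostly Col3a1, with Col1a2 and Pdgfrb at 0 reads. The 4 endothelial markers summed to 0.593 to 2.05 CPM in AmeloD and 1.01 to 1.95 CPM in Control, with Kdr at 0 reads. Their part in the differences of the members was not tested.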

How the data were processed

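Gene expression was measured by 3′-end RNA sequencing in 8 libraries of SF2 cells, 4 per genotype, with 1 library for each combination of genotype, plasmid and TGF label. The authors deposited CPM values, read counts scaled to the library total, for 30240 gene rows, with coordinates on mRatBN7.2. The submitters' processing notes name STAR 2.7.10a and featureCounts 2.0.1, the trimmers cutadapt 3.7, Trim Galore 0.6.7 and Trimmomatic 0.39, and DESeq2 1.20.0. The sources used here do not state molecular identifiers, strand or the treatment of shared reads, so counting intervals and floors cover counting error only. Every deposited CPM value was a whole multiple of the value of 1 read within 0.01 (100%), so read counts were recovered from the authors' CPM for the count tests. The lowest floor of 3 reads was 0.169 CPM and the highest 0.284 CPM.

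The 6849 genes with at least 1 CPM in at least 4 libraries were tested with limma 3.58.1 (R 4.3.3) on log2(CPM + 1), with genotype, plasmid and TGF as additive terms (4 residual degrees of freedom), mean-variance trend, two-sided tests and Benjamini-Hochberg adjustment at 0.05. The variance of each gene was moderated towards that trend, so its p-value also draws on the spread of other genes. Interactions were added 1 at a time (3 residual degrees of freedom). Alternatives were a pseudocount of 0.25, other filters, TMM and table-total scaling, edgeR 4.0.16 and DESeq2 1.42.0 on the recovered reads, an added plasmid by TGF term, subsets of libraries and each library left out. Per-library values are given for members past a test, for the highest and lowest genotype difference of each class and for the immunoproteasome genes. The members and lists were chosen with earlier results of these data known. Promoters come from RefSeq for GRCr8. Other tools were Python's numpy 2.4.6, pandas 2.3.3, scipy 1.17.1 and matplotlib 3.10.9.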

Additional observations from a re-analysis of the deposited data

Results flagged for a closer look

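Within each genotype, 4 of the 88 groups of 4 libraries examined had 1 library far from the other 3 (a gap above Dixon's 95% critical value), where chance alone gives about 1 in 20. That rate is only a guide, since the 4 libraries differ in plasmid and TGF label and the groups share the same libraries. Psmb1, a structural beta gene, had 46.7 CPM in AmeloD pCMV6.ODAM TGF, against 37.1 to 38.3 CPM in the other AmeloD libraries. Psmg3, the gene of PAC3, had 8.41 CPM in the same library, against 5.93 to 6.28 CPM in the others. Psmc1, the gene of the ATPase Rpt2, had 8.52 CPM in AmeloD pCMV6 N, against 7.10 to 7.30 CPM in the others. Psmg2, the gene of PAC2, had 1.13 CPM in Control pCMV6 N, against 1.83 to 1.91 CPM in the other Control libraries.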

How the results depend on the processing

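The direction of each member's main genotype call was the same under all 18 alternatives, and the number of members called was not. Beside 6 in the main analysis, 2 members passed with any gene of at least 1 read tested, 3 with TMM scaling, 3 with DESeq2, 2 in N libraries alone, 0 in TGF libraries alone, and 1 to 4 with 1 library left out. With a pseudocount of 0.25 and with the filter of 2 CPM in all libraries 6 passed, with table-total scaling 5, with edgeR 4, and 7, Psme1 being added, with the plasmid by TGF term that gives each matched pair its own level. Fewer libraries or more genes tested enter some of these; for the scalings and tools the cause was not tested. Over all genes the genotype test called 437 in TGF libraries alone, against 946. The TGF test called 67 genes with the any-read filter, 11 in AmeloD and 54 in Control libraries alone, and 71 to 104 with 1 library left out, against 124. The plasmid test called 1 gene with DESeq2, 4 in N, 22 in TGF and 3 in Control libraries alone, and 0 to 2 with 1 library left out, against 0. The genotype by TGF test called 0 with a pseudocount of 0.25 and 0 with edgeR, against 1. No member's TGF, plasmid or interaction call changed, and of 750 alternatives for class medians and sums 731 stayed close and 19 moved. Leave-outs were not run for interactions. A count of 0 allows up to 0.169 to 0.284 CPM. With 1 library per combination each gene has 4 residual degrees of freedom in the main model, and the limma p-values also borrow variance from other genes.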
